A study of Homo sapiens with 6 samples.

Results

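The SOX, GATA and T-box genes encode 3 families of transcription factors that set and hold cell identity during development. The 39 genes described here were taken by name from the deposited table (19 SOX, 6 GATA and 14 T-box genes of 58051 genes). They were followed in A2780-ADR, a doxorubicin-resistant (adriamycin-resistant) human ovarian cancer cell line, and in A2780, the doxorubicin-sensitive line, which the study set side by side to look for transcripts tied to resistance. Each line gave 3 replicate samples, labelled untreated and grown in the same medium, and their polyadenylated RNA was sequenced. Each group is 1 cell line, so the samples speak for the spread within these lines and not for drug resistance in general, and exposure to doxorubicin cannot be told apart from other differences between the lines.

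SOX proteins bind DNA through an HMG box related to that of SRY and are sorted into groups by sequence, with SOX2 (group B1) kept in pluripotent and neural progenitor cells, SOX9 (group E) in cartilage and the male gonad, and SOX7, SOX17 and SOX18 (group F) in endothelium and endoderm. GATA proteins carry zinc fingers that bind the letters GATA, with GATA1, GATA2 and GATA3 known from blood and GATA4, GATA5 and GATA6 from heart, endoderm and gonad. T-box proteins share the DNA-binding domain of Brachyury and pattern heart, limb and mesoderm, and the TBR1, EOMES and TBX21 branch is known from cerebral cortex and lymphocytes.

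GATA5 and TBX18 were read in every A2780 library and were at or near 0 in A2780-ADR, while TBX15 was abundant in every A2780-ADR library and near 0 in A2780. SOX2, SOX4, SOX13, TBX10 and EOMES were also lower in A2780-ADR, and SOX7, SOX8, TBX4 and TBX19 were higher. The most abundant members for their length, SOX12, GATA2 and TBX2, led their families in both lines and differed by less than 2-fold. In bulk RNA, fewer cells that express a gene and less of its RNA per cell cannot be told apart. Of the 39 members, 9 had no read in any library and a further 10 had reads but a mean under 10 normalized counts, the minimum for testing. Among the 20 members tested, 5 were called higher and 7 lower in A2780-ADR, where a call needed an adjusted p under 0.05 (limma, Benjamini-Hochberg over all 17005 genes tested) and more than a 2-fold change. The same rule called 27.6% of all genes tested, 13.2% as higher and 14.4% as lower, so a call by itself was common in this comparison. Of the 20 members, 5 (SOX2, GATA5, TBX10, TBX15 and TBX18) passed the minimum through 1 line alone and had to differ, so the share called among the tested members supports nothing about the families.

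**Figure D1:**
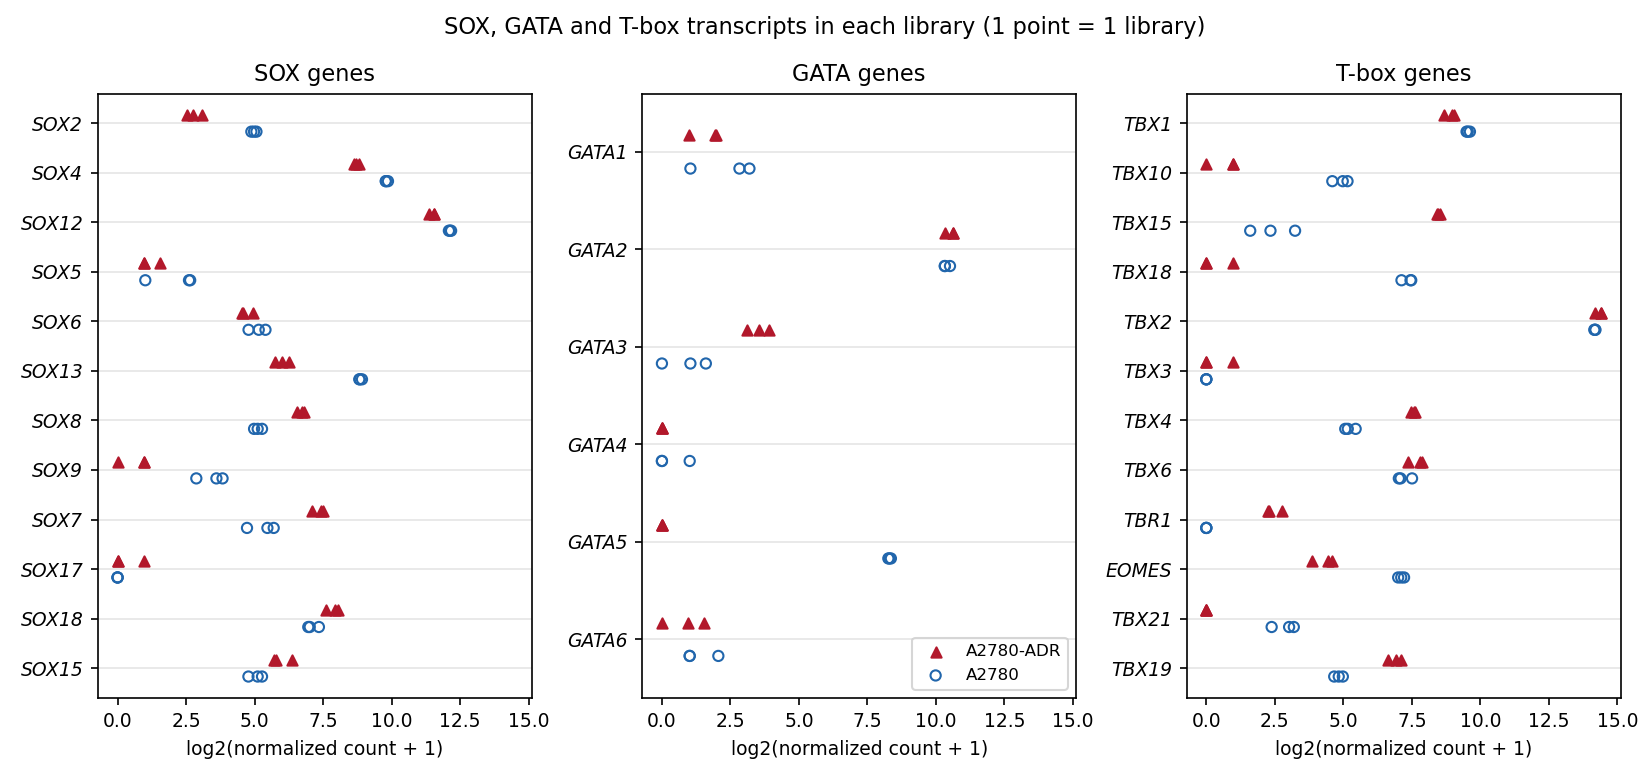
Level of the 30 members with at least 1 read, as log2(normalized count + 1) on the horizontal axis, with A2780-ADR as filled triangles above A2780 as open circles and 1 point for each library. GATA5, TBX18 and TBX10 sit at the left edge in A2780-ADR, TBX15 is low in A2780, and among the tested members GATA2, TBX2, TBX6 and SOX6 have overlapping libraries.

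The libraries held 27775745 to 30513366 reads in genes, and mitochondrially encoded genes took 5.54% to 6.36% of them. The resistance label was checked with ABCB1, the drug efflux pump of multidrug-resistant cells, which had 26769, 27780 and 29512 normalized counts in A2780-ADR against 0, 2.04 and 1.06 in A2780. Of 12 markers of ovarian and Mullerian epithelium, 2 reached the minimum for testing. FOLR1, the folate receptor, was higher in A2780-ADR (439 normalized counts against 16.2 in A2780, log2 fold change 4.69), and PAX2 was lower (1.91 in A2780-ADR against 10179.5 in A2780). Among the others, HOXA9 had no read, and MUC16 and WT1 averaged 3.49 and 6.41 normalized counts in A2780-ADR against 0.34 each in A2780. PAX8 averaged 15.3 in A2780-ADR against 1.41 in A2780, and WNT4 6.39 against 3.10. LHX1 and MSLN went the other way, averaging 1.59 and 2.56 in A2780-ADR against 15.1 and 10.3 in A2780. HOXA10 and HOXA11 averaged 0.642 and 0.321 in A2780-ADR and 0 in A2780, and EMX2 0 in A2780-ADR and 0.339 in A2780. Of 9 epithelial markers, the keratins KRT8 and KRT18 were higher in A2780-ADR. KRT8 averaged 9071 normalized counts in A2780-ADR against 79.1 in A2780, and KRT18 4072 against 130. None of the 9 was called lower, KRT7 had no read, and CDH1 averaged 4.14 in A2780-ADR and 4.79 in A2780. Of 7 mesenchymal markers, 1 was called higher and 2 lower, and of 7 fibroblast markers 3 were higher and 2 lower. The 6 leukocyte markers summed to 89.9 to 125 normalized counts in A2780-ADR libraries and 18.3 to 32.7 in A2780 libraries. Among them ITGAM was higher, CD3E was at 0, and PTPRC averaged 2.88 in A2780-ADR and 1.75 in A2780. The 6 endothelial markers summed to 35.9 to 47.2 in A2780-ADR and 7.12 to 13.2 in A2780. Among them KDR was higher, and CDH5 and VWF averaged 0.321 and 1.92 in A2780-ADR and 0 in A2780.

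Promoter windows are shown for the 4 called members where a searched sequence lay in a window starting near the annotated gene start, so that the letters can be read beside the values that follow. RefSeq (GRCh38.p14) gave a window for 25 of the 39 members, running from 250 bases before the RefSeq start to 50 after it. GATA5, TBX15, SOX7 and SOX8 are called members with no window. Capitals mark TGACG, the core of the element bound by CREB1 (read as CGTCA on the other strand), in SOX2, TBX10 and TBX18, and GATAA, the core bound by GATA factors, in TBX19. The windows are chr3:181711675-181711974 on the + strand for SOX2, chr11:67639714-67640013 on the - strand for TBX10, chr6:84764549-84764848 on the - strand for TBX18 and chr1:168280627-168280926 on the + strand for TBX19, each written 5′ to 3′. The windows of TBX10, TBX18 and TBX19 end just before the GENCODE start of the gene, and that of SOX2 spans it.
SOX2: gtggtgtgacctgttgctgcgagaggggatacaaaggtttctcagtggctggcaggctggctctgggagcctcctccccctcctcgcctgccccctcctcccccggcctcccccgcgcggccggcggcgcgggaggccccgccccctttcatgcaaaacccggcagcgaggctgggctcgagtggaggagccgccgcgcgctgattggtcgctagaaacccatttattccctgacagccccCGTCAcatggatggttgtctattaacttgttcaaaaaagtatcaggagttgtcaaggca
TBX10: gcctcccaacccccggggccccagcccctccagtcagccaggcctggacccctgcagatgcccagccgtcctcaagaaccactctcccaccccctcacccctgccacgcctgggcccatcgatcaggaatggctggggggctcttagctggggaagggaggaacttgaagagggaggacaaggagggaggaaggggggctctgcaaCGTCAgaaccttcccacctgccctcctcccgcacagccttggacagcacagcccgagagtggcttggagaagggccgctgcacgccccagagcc
TBX18: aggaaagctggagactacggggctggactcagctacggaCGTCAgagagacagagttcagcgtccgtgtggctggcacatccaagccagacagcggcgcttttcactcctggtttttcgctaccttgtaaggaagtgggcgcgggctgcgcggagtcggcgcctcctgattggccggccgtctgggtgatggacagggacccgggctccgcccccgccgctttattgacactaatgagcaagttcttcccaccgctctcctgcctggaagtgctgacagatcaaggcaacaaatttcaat
TBX19: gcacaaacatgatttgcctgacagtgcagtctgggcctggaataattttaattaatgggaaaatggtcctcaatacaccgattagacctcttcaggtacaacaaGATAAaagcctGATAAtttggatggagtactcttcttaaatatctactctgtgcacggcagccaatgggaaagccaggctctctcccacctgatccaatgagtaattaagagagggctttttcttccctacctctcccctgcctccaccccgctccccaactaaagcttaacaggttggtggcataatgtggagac

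Both strands were searched for 5 sequences over all 27305 RefSeq windows. TGACG was found in 10 of the 25 member windows and in 25% of all windows, GATAA in 4 and in 23.2%, ACAAT (the SOX core) in 3 and in 28.0%, TATAAA in 2 and in 12.0%, and AGGTGT (a T-box half-site) in 0 and in 11.4%. None of the 5 sequences contains another on either strand. By call, TGACG was in 3 of 6 windows of members called lower, in 0 of 2 of members called higher, in 3 of 5 of members tested and not called (SOX12, SOX6 and TBX6) and in 4 of 12 of members under the minimum for testing. A CpG ratio above 0.6 (observed over expected), as in CpG islands, was found in 17 of the 25 member windows and in 48.9% of all windows. TBX18 (0.796) and SOX2 (0.667) lay above that value, and TBX10 (0.265) and TBX19 (0.192) lay far below it. Such matches describe the letters of a window and do not show that a factor binds there.

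GATA5, a zinc finger factor of heart, gut and lung development, was read in A2780 alone. It had 0 normalized counts in all 3 A2780-ADR libraries, against 327, 314 and 306 in the A2780 libraries. No read fell on it in A2780-ADR and 919 did in A2780, which put it at least 329.7-fold lower in A2780-ADR when 3 reads over the line are allowed for a count of 0 (adjusted p = 2.81e-11). The gene lies at chr20:62463497-62475970 on the - strand. AL499627.2, a long noncoding RNA that starts 1.9 kb away on the opposite strand, had 0 reads in A2780-ADR and 75 in A2780 and was called lower, while CABLES2, the nearest tested gene on the other side, had a log2 fold change of -0.28.

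GATA2, which keeps blood stem cells and progenitors, was the main GATA transcript in both lines. It had 1573, 1588 and 1289 normalized counts in A2780-ADR, against 1460, 1279 and 1284 in A2780. The lines overlapped, and the log2 fold change of 0.14 (95% interval -0.04 to 0.33, adjusted p = 0.152) lay well inside a 2-fold change. GATA2-AS1, which overlaps it on the opposite strand, averaged 555 normalized counts in A2780-ADR and 342 in A2780.

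The other GATA genes were at the edge of detection. GATA3, needed for T lymphocytes and mammary luminal cells, had 15, 11 and 8 reads in A2780-ADR against 0, 2 and 1 in A2780, a ratio of 10.5 (exact counting interval 3.31 to 53.6). GATA1, the factor of red blood cells, had 7 reads in A2780-ADR and 15 in A2780. GATA6 had 3 reads in A2780-ADR and 5 in A2780, and GATA4 had 0 in A2780-ADR and 1 in A2780, both being known from heart and endoderm. Only GATA3 had lines that did not overlap among these 4 genes. Per kilobase of exon, GATA2 made up 98.5% ± 0.371 of the summed GATA level in A2780-ADR and 70.5% ± 1.16 in A2780 (SD, n = 3), and GATA5 made up 0% in A2780-ADR and 28.5% ± 0.906 in A2780. The sum over the family was 337 normalized counts per kilobase in A2780-ADR and 427 in A2780.

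**Figure D2:**
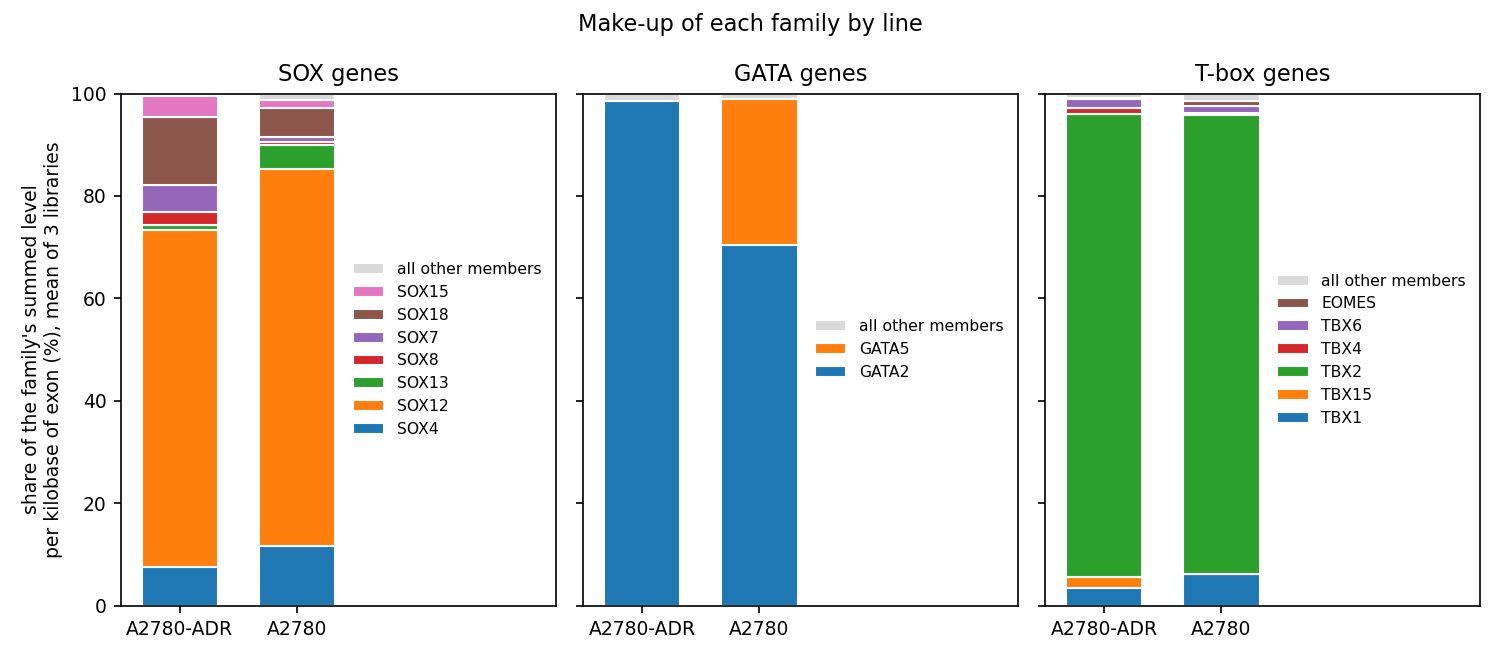
Share of each family's summed level held by each member, in percent of normalized counts per kilobase of exon and as the mean of 3 libraries, with A2780-ADR left of A2780. Members under 1% in both lines are grouped in grey. GATA5 held 28.5% of the GATA level in A2780 and 0% in A2780-ADR, and SOX18 held 13.2% of the SOX level in A2780-ADR and 5.60% in A2780.

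TBX15, a factor of the limb skeleton, dermis and fat cells, rose more than any other tested member. It had 338, 366 and 351 normalized counts in A2780-ADR, against 4.07, 2.04 and 8.44 in A2780. Every A2780-ADR library was far above every A2780 library, and the log2 fold change was 6.07 ± 0.33 (SE, adjusted p = 8.29e-09). TBX15 lies at chr1:118883046-118989556 on the - strand. Its nearest tested neighbour WARS2, 41.7 kb away on the same strand, had a log2 fold change of -0.00 and was not called, and WDR3, the nearest on the other side at 917 kb, was called higher (9674 normalized counts in A2780-ADR and 3731 in A2780, log2 fold change 1.37).

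TBX18, which marks epicardium, sinus node and ureter mesenchyme, went the other way although it belongs to the same subfamily. It had 0.946, 0 and 0 normalized counts in A2780-ADR, against 138, 174 and 177 in A2780. There was 1 read in A2780-ADR and 475 in A2780, a ratio of 511 with an exact counting interval of 91.3 to 20235 (adjusted p = 1.83e-09). The gene lies at chr6:84687351-84764519 on the - strand, so that the window printed above ends just before its GENCODE start. TBX18-AS1 on the opposite strand had 0 reads in A2780-ADR and 1 in A2780, CEP162 on one side was called lower (log2 fold change -1.12) and SNX14 on the other side was not called (0.55).

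TBX10, a further gene of this subfamily at chr11:67631303-67639560, was low in A2780 and nearly absent in A2780-ADR. It had 0.946, 0.963 and 0 normalized counts in A2780-ADR, against 34.6, 30.6 and 23.2 in A2780. The 2 reads in A2780-ADR and 86 in A2780 gave a ratio of 46.3 (12.4 to 388, adjusted p = 9.57e-07). NUDT8, which starts 1.37 kb away on the same strand, averaged 97.7 normalized counts in A2780-ADR and 187 in A2780 (log2 fold change -0.93, not called).

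TBX1, the pharyngeal and cardiac outflow factor of the DiGeorge syndrome deletion, was lower by less than the 2-fold limit. It had 524, 504 and 405 normalized counts in A2780-ADR, against 786, 745 and 722 in A2780 (log2 fold change -0.66 ± 0.09, adjusted p = 5.37e-05). The lines did not overlap. GNB1L, a gene that overlaps TBX1 on the opposite strand, had a log2 fold change of -0.04. Per kilobase, TBX1 made up 62.0% of the summed level of its subfamily in A2780-ADR and 84.2% in A2780, and TBX15 made up 37.8% in A2780-ADR and 0.453% in A2780, while TBX20, a heart factor of the same subfamily, had no read.

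TBX2, a repressor that lets cells bypass senescence, was by far the most abundant T-box transcript. It had 21464, 21564 and 18666 normalized counts in A2780-ADR, against 18845, 18618 and 18292 in A2780. One A2780-ADR library fell among the A2780 values, and the log2 fold change of 0.14 (95% interval 0.02 to 0.26, adjusted p = 0.0362) was small. It made up 90.3% ± 0.549 of the T-box level per kilobase in A2780-ADR and 89.7% ± 0.305 in A2780 (SD, n = 3). TBX2-AS1, which overlaps it on the opposite strand, averaged 1250.4 normalized counts in A2780-ADR and 1551 in A2780.

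TBX4, the hindlimb and lung mesenchyme factor, lies next to TBX2 on chromosome 17 (chr17:61452404-61485110) and rose. It had 194, 175 and 191 normalized counts in A2780-ADR, against 42.7, 32.6 and 34.8 in A2780 (log2 fold change 2.32 ± 0.15, adjusted p = 4.56e-08). All 3 A2780-ADR libraries were above all A2780 libraries. C17orf82, a noncoding RNA between TBX2 and TBX4, averaged 138 normalized counts in A2780-ADR and 110 in A2780 (log2 fold change 0.32, not called). TBX3, the paralogue of TBX2, had 1 read in A2780-ADR and 0 in A2780, and TBX5, the forelimb and heart factor, had none.

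TBX19, a factor of pituitary corticotroph cells at chr1:168281040-168314426, rose as well. It had 99.3, 136 and 120 normalized counts in A2780-ADR, against 24.4, 27.5 and 30.6 in A2780 (log2 fold change 2.06 ± 0.18, adjusted p = 6.45e-07). The lines did not overlap. Both tested neighbours had positive values, ATP1B1 at 2.70 (called) and SFT2D2 at 0.87 (not called).

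EOMES, which drives early mesoderm and endoderm and marks cytotoxic lymphocytes, fell. It had 20.8, 23.1 and 13.5 normalized counts in A2780-ADR, against 127, 137 and 148 in A2780 (log2 fold change -2.81 ± 0.21, adjusted p = 1.63e-07). Every A2780 library was well above every A2780-ADR library. LINC02084, which starts 1.94 kb away on the opposite strand, was lower too (log2 fold change -1.82, 17 reads in A2780-ADR and 62 in A2780). Of its close relatives, TBX21, the T-bet of T helper cells, had 0 reads in A2780-ADR and 7, 8 and 4 in A2780 (at least 6.82-fold lower). CD3E was at 0 in both lines, and PTPRC averaged 2.88 normalized counts in A2780-ADR and 1.75 in A2780. TBR1, a relative of EOMES and a factor of cortical neurons, had 4, 6 and 4 reads in A2780-ADR and 0 in A2780 (at least 4.34-fold higher).

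TBX6, needed for somite formation, had overlapping lines. It had 162, 224 and 233 normalized counts in A2780-ADR, against 181, 129 and 135 in A2780 (log2 fold change 0.47 ± 0.17, adjusted p = 0.0239, not called). Summed over the T-box genes, the level per kilobase was 3776 normalized counts in A2780-ADR and 3436 in A2780, so the gene-by-gene changes lay beside a TBX2 level that dominated both sums.

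**Figure D3:**
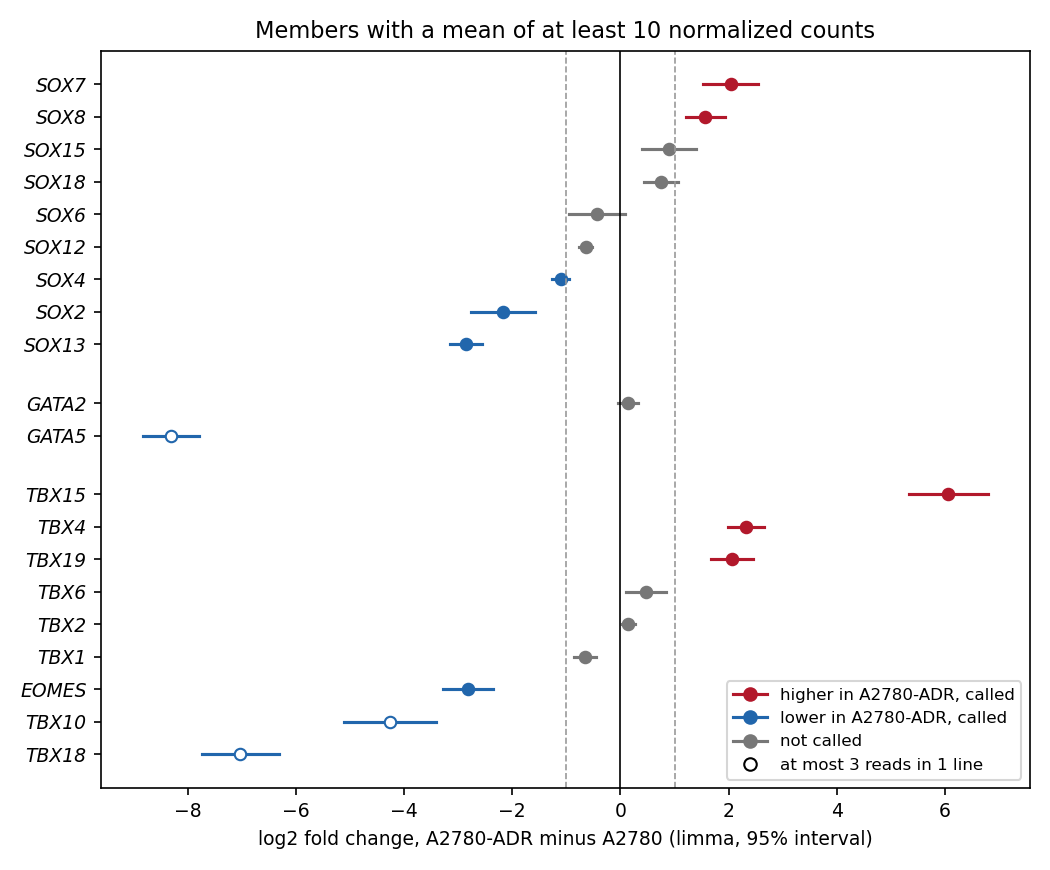
Log2 fold change of the 20 tested members (A2780-ADR minus A2780, on log2(normalized count + 1)) with 95% intervals from limma, by family and in order of size, with dashed lines at a 2-fold change. White-centred points mark GATA5, TBX10 and TBX18, whose 0 to 2 reads in A2780-ADR make the fitted value depend on the added count of 1. TBX15 lies at 6.07 and TBX18 at -7.03 within the same family.

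SOX13, a group D gene active in T lymphocytes and neural tissue, showed the largest change among the tested SOX genes. It had 75.7, 52.0 and 63.5 normalized counts in A2780-ADR, against 459, 451 and 483 in A2780 (log2 fold change -2.86 ± 0.14, adjusted p = 2.49e-09). The A2780 libraries were close to each other and all far above A2780-ADR. SOX13 lies at chr1:204073115-204127743, and ETNK2, 3.32 kb away on the opposite strand, was called in the other direction (109 normalized counts in A2780-ADR and 32.5 in A2780, log2 fold change 1.73). Of the other group D genes, SOX6 had 22.7, 29.9 and 22.1 in A2780-ADR against 34.6, 26.5 and 41.2 in A2780, with overlapping lines (log2 fold change -0.43, 95% interval -0.95 to 0.09, adjusted p = 0.124), and SOX5 had 4 reads in A2780-ADR and 11 in A2780.

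SOX2, the pluripotency and neural progenitor factor, was low in A2780 and lower in A2780-ADR. It had 7.57, 4.82 and 5.77 normalized counts in A2780-ADR, against 32.6, 30.6 and 28.5 in A2780 (log2 fold change -2.18 ± 0.27, adjusted p = 1.51e-05). The 3 libraries of each line lay close together and the lines did not overlap, at 19 reads in A2780-ADR and 89 in A2780. SOX2-OT, the noncoding RNA that spans SOX2 on the same strand, had 16 reads in A2780-ADR and 2 in A2780. SOX1 and SOX3, the other group B1 genes, and SOX14 and SOX21 of group B2 had no read.

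SOX4, a group C factor common in progenitors and tumours, fell by 1.10 on the log2 scale, just past the 2-fold limit (SE 0.07, adjusted p = 4.33e-08). It had 392, 419 and 448 normalized counts in A2780-ADR, against 887, 934 and 882 in A2780. SOX12, the group C gene that led the SOX family, had 3018, 2984 and 2630.2 in A2780-ADR against 4616, 4490.8 and 4364 in A2780 (log2 fold change -0.64 ± 0.06, adjusted p = 7.40e-07, not called). In both genes every A2780-ADR library was below every A2780 library. SOX11, the third group C gene and a neural factor, had no read. SOX12 made up 65.8% of the SOX level per kilobase in A2780-ADR and 73.6% in A2780, and SOX4 made up 7.64% in A2780-ADR and 11.7% in A2780.

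SOX7, a group F factor of endothelium and primitive endoderm, rose. It had 180, 137 and 170 normalized counts in A2780-ADR, against 25.4, 50.9 and 43.3 in A2780 (log2 fold change 2.04 ± 0.23, adjusted p = 6.91e-06). SOX18, which guides lymphatic endothelium, had 261, 247 and 192 in A2780-ADR against 128, 162 and 124 in A2780 (log2 fold change 0.75 ± 0.15, adjusted p = 5.75e-04, not called). Neither gene had overlapping lines, and SOX17, the endoderm factor of the group, had 1 read in A2780-ADR and 0 in A2780. SOX18 took 13.2% of the SOX level per kilobase in A2780-ADR and 5.60% in A2780, and SOX7 took 5.36% in A2780-ADR and 0.942% in A2780. PINX1, the nearest tested gene beside SOX7 on the same strand, averaged 479 normalized counts in A2780-ADR and 304 in A2780 (log2 fold change 0.65, not called). A separate gene entry, also named PINX1, overlaps SOX7 on the same strand and had no read in either line. AC105001.1, antisense to SOX7, had 32 reads in A2780-ADR and 11 in A2780.

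SOX8, a group E gene of neural crest, glia and gonad at chr16:981808-986979, rose. It had 92.7, 110 and 106 normalized counts in A2780-ADR, against 37.6, 33.6 and 30.6 in A2780 (log2 fold change 1.57 ± 0.17, adjusted p = 3.48e-06). AC009041.2, a noncoding RNA that starts 0.212 kb away on the opposite strand, was higher too (74.3 normalized counts in A2780-ADR and 14.5 in A2780), while LMF1, 0.49 kb away, was not called (log2 fold change -0.03). SOX9, the group E factor of cartilage and testis, had 1, 0 and 1 reads in A2780-ADR against 11, 13 and 6 in A2780, a ratio of 16.1 (exact counting interval 4.10 to 139), and SOX10, the neural crest factor of the group, had no read. SOX8 thus made up 99.3% of the group E level per kilobase in A2780-ADR and 75.1% in A2780. SOX15, the only group G gene, had 81.3, 51.1 and 53.9 in A2780-ADR against 37.6, 33.6 and 26.4 in A2780 (log2 fold change 0.89 ± 0.23, adjusted p = 0.00370, not called), and SOX30, a testis gene, had no read.

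Of the 20 tested members, 16 had lines that did not overlap, where 74.6% of all genes tested did so, and 18 had an adjusted p under 0.05 at any fold, where 71.8% did. With no minimum on the mean, the same fit also called SOX9 and TBX21 lower and GATA3 and TBR1 higher, in a table where it called 20.3% of genes. The median log2 fold change of all genes tested was -0.01. Around the minimum of 10, GATA3 (mean 5.93) was the highest member left out and TBX10 (mean 15.0) the lowest tested. The libraries were prepared with a kit that keeps strand, but the strand setting of the counting is not given in the sources used here, so reads of a member cannot be told apart with certainty from those of a gene on the opposite strand. That bears most on SOX6 and SOX15, which overlap the far more abundant C11orf58 and MPDU1 (4589 and 2607 normalized counts in A2780-ADR, 5664 and 2242 in A2780).

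Genes next to the 12 called members were read to see whether members changed alone. The nearest tested gene on either side gave 24 neighbours, of which 9 were called in the same direction as the member, 1 (ETNK2) in the opposite direction and 14 were not called, where 27.6% of all genes tested were called in either direction, 13.2% higher and 14.4% lower. Neighbours of a member can share its region and are not independent genes. The called neighbours within 2 kb were noncoding RNAs on the opposite strand, beside GATA5, EOMES and SOX8. Neither neighbour of TBX4, SOX4 or TBX10 was called. PRSS55 beside SOX7 (log2 fold change 4.0) lay 169.6 kb away and ATP1B1 beside TBX19 lay 791 kb away.

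**Figure D4:**
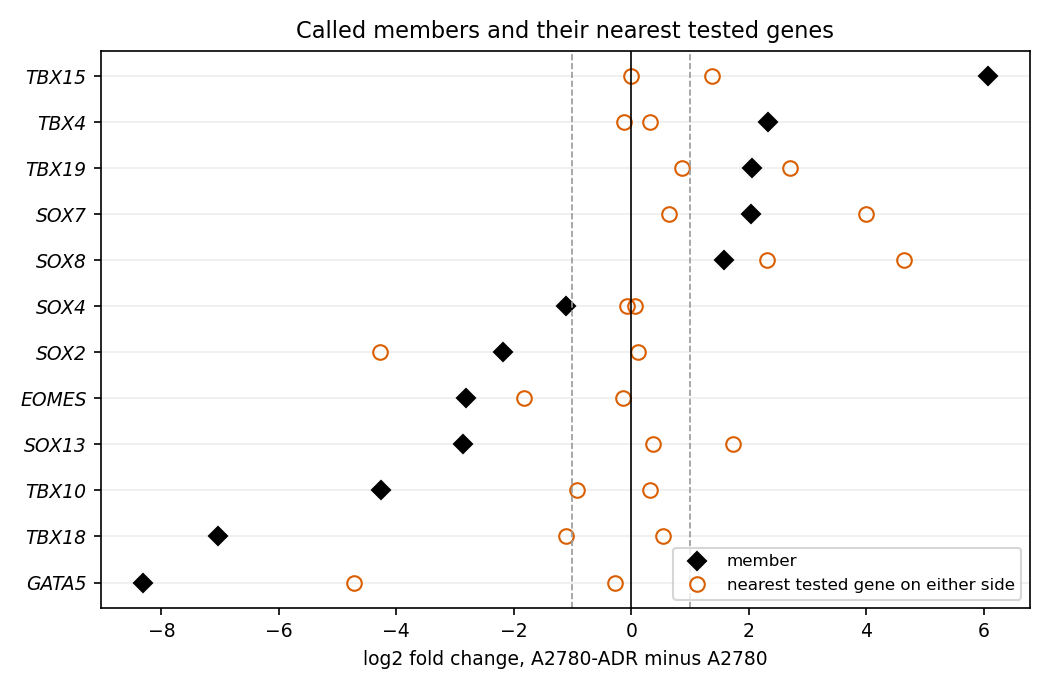
Log2 fold change (A2780-ADR minus A2780) of the 12 called members as black diamonds and of the nearest tested gene on each side as open circles, with dashed lines at a 2-fold change. Of the 24 circles, 9 lie past the dashed line on the member's side, 1 past the opposite line and 14 were not called.

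Partners, targets and lineage genes of the 3 families were described from lists drawn up from general knowledge. Of 20 cofactors and partners of GATA factors, 14 were tested, 4 were higher and 6 lower, with a median log2 fold change of -0.65 against -0.01 over all genes tested. LMO1, an adaptor of GATA complexes, averaged 4.78 normalized counts in A2780-ADR and 765 in A2780 (log2 fold change -7.06), TRPS1, a GATA-type repressor, 21.1 in A2780-ADR and 1828 in A2780 (-6.38), and HAND2, a heart and limb partner, 12.1 in A2780-ADR and 516 in A2780 (-5.38). Higher were NKX2-5, a heart partner of GATA4 (306 in A2780-ADR and 2.09 in A2780, log2 fold change 6.78), RUNX1, a blood factor (182 in A2780-ADR and 4.48 in A2780, log2 fold change 5.55), and LYL1, which joins GATA complexes in blood (401 reads in A2780-ADR and 3 in A2780, a ratio of 124, interval 42.2 to 605).

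Genes tied to GATA4 and GATA6 in gonad, heart and basement membrane also split, with 4 lower, 2 higher and 3 not called of 9 tested (median -0.37). FOXL2, the granulosa cell factor, had 0 reads in A2780-ADR and 619 in A2780 (at least 222-fold lower). LAMA1, a laminin chain, fell by 7.62 on the log2 scale, and NPPB, the natriuretic peptide, had 1 read in A2780-ADR and 312 in A2780 (a ratio of 336, interval 59.8 to 13306). LAMB1 (log2 fold change 4.04) and AMHR2, the receptor of anti-Mullerian hormone (2.84), were higher. Of 18 targets of GATA1, GATA2 and GATA3, only EPOR (the erythropoietin receptor, log2 fold change -1.33) and ITGA2B (0.02, not called) were tested.

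The SOX2 and pluripotency list had 7 tested genes of 19, and each was called, 4 lower and 3 higher (median -1.31). LIN28A (66.7 normalized counts in A2780-ADR and 3989 in A2780, log2 fold change -5.89), LIN28B (-2.08), both RNA-binding blockers of let-7, and POU3F2, a neural POU factor (-4.42), were lower. ZFP42, a stem cell marker, had 278 reads in A2780-ADR and 1 in A2780 (a ratio of 258, interval 46.0 to 10238), and NES, the nestin of neural progenitors (2.99), and PAX6 (2.13) were higher. POU5F1 and NANOG, the core partners of SOX2, averaged 6.39 and 0.951 in A2780-ADR and 3.80 and 3.1 in A2780, under the minimum for testing.

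Of 16 cartilage genes controlled by SOX9, SOX5 and SOX6, 11 were tested, with 6 lower, 2 higher and 3 not called (median -2.31). COL9A1 had 3 reads in A2780-ADR and 202 in A2780 (a ratio of 72.5, interval 24.4 to 354), and COMP and COL11A1 fell by 3.68 and 3.58 on the log2 scale, while COL9A3 (3.14) and COL9A2 (2.31), the other chains of the same collagen, were higher. Of the SOX10 list of neural crest, glia and melanocyte genes, 12 of 22 were tested, with 4 higher, 5 lower and a median of -0.06. TYRP1, a melanin enzyme, averaged 44.3 normalized counts in A2780-ADR and 4285 in A2780 (-6.61), and NGFR (-5.09) and GJB1 (-2.93) were lower too, while SNAI2 (3.79) and the myelin gene MBP (1.59) were higher. These values stood beside a SOX10 with no read in either line.

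Endoderm genes (1 higher, 4 lower and 2 not called of 7 tested, median -2.36) included FOXA3 (-2.49) and CER1 (-2.39) on the lower side and FOXA1 (1.82) on the higher side. Of the endothelial genes tied to SOX7, SOX17 and SOX18, 3 of 13 were tested. KDR, the VEGF receptor, had 85 reads in A2780-ADR and 1 in A2780 (a ratio of 79.0, interval 13.8 to 3155), EGFL7 was lower (-1.0) and ESAM was not called (0.93). Of the 10 genes under the minimum for testing, TIE1 had 45 reads in A2780-ADR and 1 in A2780, FLT1 27 and 0, VCAM1 27 and 2, PECAM1 9 and 1, PROX1 7 and 0, VWF 6 and 0, TEK 12 and 7, CLDN5 18 and 19 and CDH5 1 and 0 in the same order, and LYVE1 had none. The part of other cell types in these values was not tested.

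T-box targets had 2 of 7 tested genes called, both lower (median -0.57). IFNG, a target of TBX21 and EOMES in lymphocytes, had 0 reads in A2780-ADR and 144 in A2780 (at least 51.7-fold lower). CDKN1A and CDKN2A, cell cycle inhibitors that TBX2 represses, averaged 2048 and 86.1 normalized counts in A2780-ADR and 1219 and 53.6 in A2780 (log2 fold changes 0.75 and 0.67, not called). Among 11 tested relatives outside the 39 (other HMG box, GATA-type and T-box genes), 3 were lower, none was called higher and 8 were not called, the lower ones being TRPS1, BBX (-1.63) and HBP1 (-1.46).

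**Figure D5:**
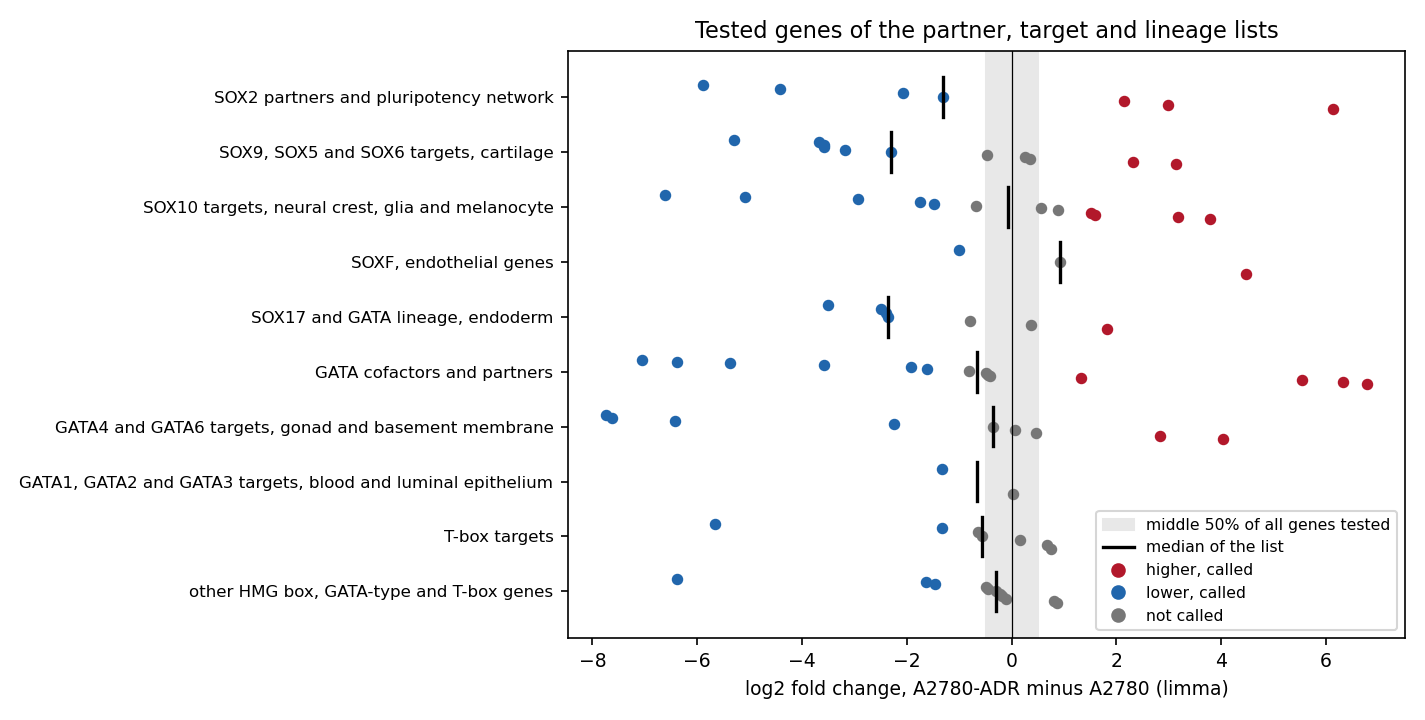
Log2 fold change (A2780-ADR minus A2780, limma) of each tested gene in the lists of partners, targets and lineage genes, with the list median as a black bar and the middle 50% of all genes tested (-0.49 to 0.50) shaded. The cartilage and endoderm lists have the lowest medians (-2.31 and -2.36), and most lists hold genes called on both sides. Points of genes with at most 3 reads in a line depend on the added count of 1.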

How the data were processed

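RNA was sequenced in 3 A2780-ADR and 3 A2780 samples, grouped by the line in their labels. The deposited signal values are read counts that the authors normalized with DESeq. Per the submitters' processing notes, STAR, HTSeq and GRCh38 were used, while versions, annotation release and strand setting were not given in the sources used here. Each value above 0 was a whole number of reads to within 0.01 (100% of values), so reads per gene were recovered. GENCODE release 29 gave names, positions and exon lengths (57447 of 58051 identifiers matched).

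The 17005 genes averaging 10 or more normalized counts were fitted with limma 3.58.1 in R 4.3.3 on the log2 scale after adding 1, with moderated variances that follow the mean and Benjamini-Hochberg adjustment over all of them. A gene was called where the adjusted p was under 0.05 and the change over 2-fold. With 3 samples a line, an exact permutation test of a single gene cannot go below p = 0.1. Fold changes on this scale understate the change of low genes. Where a line had 1 to 3 reads in all, the ratio of the lines was computed with an exact 95% interval, and where it had 0, a lower bound was set from 3 reads over the line. Both cover counting error only.

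The members and gene lists were chosen with earlier results of these data known. Named were all 39 members, up to 3 called genes a direction and list with the largest change, overlapping or neighbouring genes, ABCB1, and, chosen after their values were seen, POU5F1, NANOG, ITGA2B, ESAM, CDKN1A, CDKN2A, the endothelial genes under the minimum and the markers. Some genes that this rule selects are not reported here. Alternatives were other pseudocounts (0.5 and 5), other minimums (none, and a mean of 50), equal totals, TMM, limma's robust option, edgeR 4.0.16 and DESeq2 1.42.0 on the recovered reads, no fold threshold, a replicate block, and each sample left out. Promoter windows came from RefSeq. Python 3.11.15, numpy 2.4.6, pandas 2.3.3, scipy 1.17.1 and matplotlib 3.10.9 were used.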

Additional observations from a re-analysis of the deposited data

How the results depend on the processing

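The 12 called members were called under every alternative that tested them. Over the 20 tested members and all alternatives with a fold threshold, 314 values kept their direction and their side of the call, none reversed, and 2 passed the call, both of SOX15, with log2 fold changes of 1.02 without A2780-ADR replicate 2 and 1.0 without A2780 replicate 1. The number of members called was therefore 12 to 13 with a sample left out. With no filter on low values 16 members were called, and 2 instead of 1 of the GATA genes (GATA3 added). With a mean of at least 50, SOX2 and TBX10 were not tested, 10 members were called, and the count over all genes was 2955. With no fold threshold 18 members passed, 8 instead of 5 of them SOX genes, and 12210 of all genes. edgeR called 4748 genes and DESeq2 4694, of which 4660 and 4649 were shared with the 4688 of limma. The sample titles state no pairing of the replicate numbers. Correlations of deviations for equal numbers were 0.004, -0.016 and 0.077, which cannot decide whether samples were paired. The fit with the replicate block called the same 12 members and 4690 genes. A2780-ADR replicate 3 correlated best with its own number, and A2780-ADR replicate 2 with A2780 replicate 1 (0.087). A2780-ADR replicate 1 gave 0.00398, 0.00392 and -0.00789 with A2780 replicates 1, 2 and 3, so it had no clear best match. The median log2 fold change of all genes tested was -0.01, and 0.03 or -0.02 after rescaling. Depth limits what can be said of the 19 members under the filter: a gene with no read in a line can still have a true level of up to about 3 reads over its 3 libraries.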
